A study of Mus musculus with 6 samples.

Results

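The TRIM (tripartite motif) family of ubiquitin ligases was examined in RNA sequencing of whole adult brain. Members were the genes with a TRIM symbol in the count table that had at least 10 counts in at least 3 of the 6 libraries. Of 65 such symbols among 37310 genes in the table, 46 were members and 19 fell under the filter. The tissue came from 12-week-old male C57BL/6 mice. Homozygous *Adar1* E861A mice, whose ADAR1 protein carries a point mutation that removes its RNA editing activity, were compared with *Adar1* wild-type mice, with 3 biological replicates per genotype. Both genotypes were *Ifih1*-/- and so lacked MDA5, the cytosolic sensor of double-stranded RNA, which means that the comparison is of editing loss in animals without that sensor. Gene counts cannot check a point mutation, and *Ifih1* still gave 38 to 56 counts per library.

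TRIM proteins share a RING finger, B-box zinc fingers and a coiled coil. The RING recruits a ubiquitin-charged E2 enzyme, and the C-terminal domain, which differs between subfamilies, usually selects the protein to be modified. Several members are induced by interferon and restrict viruses or tune the sensing of viral RNA and DNA, while others act in neurons on axon guidance, microtubules and neurofilaments.

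The 6 libraries held 26853488 to 38076753 counts, and members took 0.233% to 0.241% of them with overlapping ranges in the genotypes. Neuronal, astrocyte, oligodendrocyte and microglial markers were abundant in all 6 libraries, as whole brain should show. Values are given as CPM, the reads of a gene scaled to the library total, in the order replicate 1, 2 and 3. In whole tissue, fewer cells of a type and less RNA per cell cannot be told apart. The E861A replicate 1 library stood apart by pituitary hormone transcripts, with 438.6 CPM summed over the detected pituitary markers against 1.30 to 3.31 in the others. Summed monocyte and neutrophil markers reached 10.4 CPM in E861A replicate 3. The other E861A libraries were at 2.48 and 3.64, and wild type at 1.71 to 2.77. Most of this rise came from *S100a8*, *S100a9* and *Ngp* (3.5, 4.13 and 2.12 CPM in E861A replicate 3). *Ccr2* and *Ly6c2* were at 0.521 and 0.149 CPM there, against 0.606 and 0.138 in E861A replicate 2. Summed muscle markers were also highest in E861A replicate 3, at 7.34 CPM against 3.47 and 3.88 in E861A and 3.70 to 4.62 in wild type. Summed choroid plexus markers were at 206 to 314 CPM in E861A and 370 to 395 in wild type. Summed endothelial markers were at 57.8 to 74.8 and 79.4 to 93.5. Most of these sums was *Ttr* (183.2 to 286.3 against 340.5 to 364.6 CPM) and *Flt1* (44.7 to 55.5 against 58.4 to 70.8). The genotypes separated for 2 of 4 choroid plexus genes (*Ttr* and *Kl*) and 1 of 3 endothelial genes (*Flt1*), and the other genes overlapped. The part of these shifts in the TRIM values was not tested.

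TRIM genes that rose in E861A brain came from the same locus, and no member elsewhere in the genome passed the test. Of the 46 members, 3 were called at an adjusted p under 0.05 (edgeR's quasi-likelihood test, Benjamini-Hochberg over all 19357 genes tested): *Trim30a*, *Trim30d* and *Trim34a*, all higher in E861A. This was 6.52% of members, where 0.558% of all genes tested were called and 0.444% were called higher. No member was called lower, where 0.114% of all genes were. At an unadjusted p under 0.05 there were 10 members, where 8.15% of all genes tested were under it. The median log2 fold change of members was 0.0090, with 24 above 0 and 22 below, and that of all genes tested was 0.00024. The ranges of the genotypes did not overlap for 14 members, or 30.4% of them, where 13.2% of all genes showed this. Of the 14, 10 lay higher and 4 lower in E861A, against 7.2% and 5.96% of all genes. The study's own filter, at least 2 CPM in all 3 libraries of a genotype, left 35 members, of which 2 (*Trim30a* and *Trim30d*) were called, both higher. Under that filter 0.506% of all genes were called, 0.41% higher and 0.0952% lower.

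**Figure D1:**
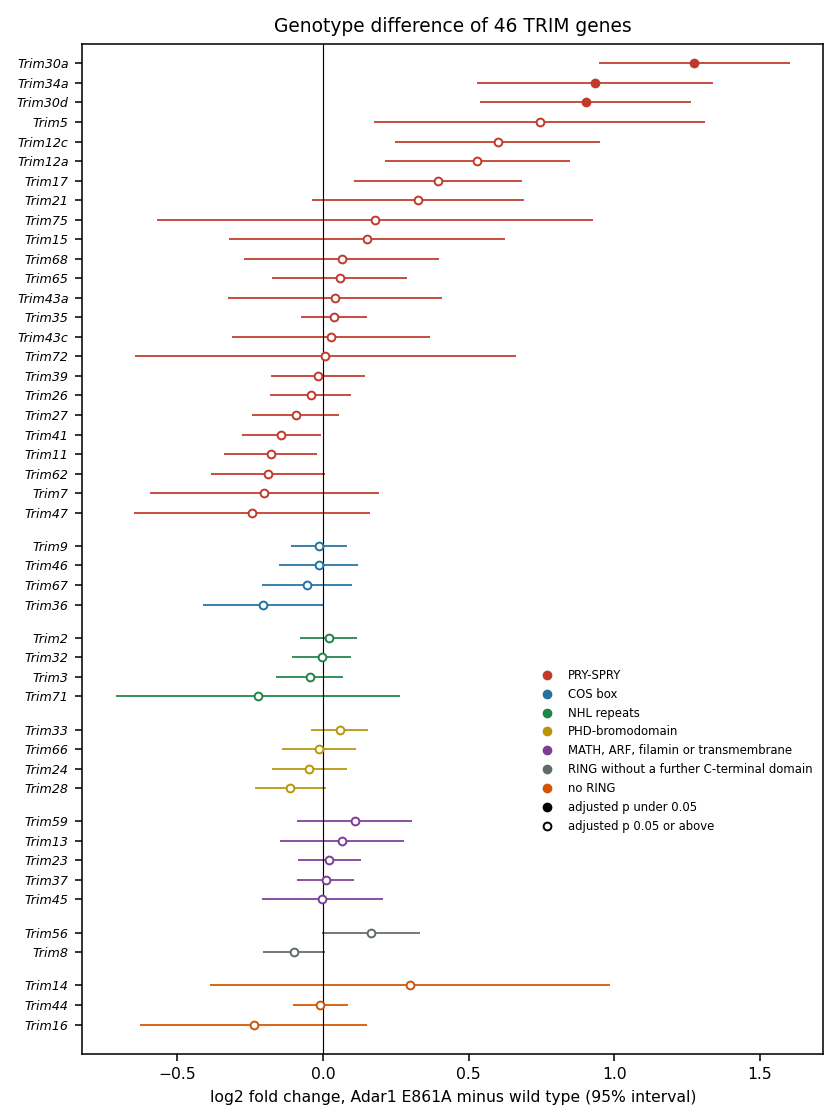
The log2 fold change (E861A minus wild type, horizontal axis) of each of the 46 TRIM members, with its 95% interval, grouped and coloured by C-terminal domain. Filled points have an adjusted p under 0.05. The 3 filled points, *Trim30a* (1.28), *Trim30d* (0.90) and *Trim34a* (0.93), are all in the PRY-SPRY group, and most other members lie close to 0.

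The 3 called genes lie together on chromosome 7, in a 263 kb stretch that also holds the members *Trim5*, *Trim12a* and *Trim12c*. This grouping was made after the values were seen. In NCBIM37 (mm9) the stretch runs from *Trim34a* (chr7:111392971-111489207, plus strand) through *Trim5* (chr7:111411900-111436608), *Trim12a* (chr7:111448408-111463980), *Trim12c* (chr7:111487268-111501876) and *Trim30a* (chr7:111557539-111613707) to *Trim30d* (chr7:111618528-111656363), the last 5 on the minus strand. All of these are protein-coding PRY-SPRY genes. *Trim5*, *Trim12a* and *Trim12c* are among the mouse relatives of human TRIM5, a factor that binds retroviral capsids. *Trim30a* is known to curb NF-kB signalling by acting on the adaptors TAB2 and TAB3.

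The promoters of these genes are shown because all 6 genes had higher values in E861A. Each holds the core of an interferon-stimulated response element, spelled as GAAA, any 2 bases and GAAA on either strand (on the opposite strand TTTC, any 2 bases and TTTC), and the match is printed in capitals. The sequences are from RefSeq (GRCm38.p6 promoter table), were placed in NCBIM37 by exact match, and read 5′ to 3′ on the strand of the gene. The stretches of *Trim30a*, *Trim30d*, *Trim12c* and *Trim5* lie before the annotated start in RefSeq. Those of *Trim34a* and *Trim12a* are the first 30 bases transcribed from the RefSeq start. The *Trim12a* span given above begins at 111463980 on the minus strand, downstream of its RefSeq start.
Trim30a, chr7:111613708-111613777: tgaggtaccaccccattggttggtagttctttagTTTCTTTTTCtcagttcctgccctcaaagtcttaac
Trim30d, chr7:111656365-111656434: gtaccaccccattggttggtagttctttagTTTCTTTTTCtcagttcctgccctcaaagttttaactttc
Trim12c, chr7:111501864-111501933: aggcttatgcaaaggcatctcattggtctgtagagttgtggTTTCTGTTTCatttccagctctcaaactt
Trim5, chr7:111436630-111436699: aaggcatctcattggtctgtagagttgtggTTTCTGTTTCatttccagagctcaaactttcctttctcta
Trim12a, chr7:111463980-111464009: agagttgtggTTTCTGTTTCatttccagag
Trim34a, chr7:111392971-111393000: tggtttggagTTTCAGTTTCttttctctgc

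The letters sort the genes into related promoters. *Trim30a* and *Trim30d* share an identical run of 118 bases within their 300-base windows (250 before to 50 after the start), *Trim5* and *Trim12a* share 241, and *Trim12c* shares 71 with each of those 2. *Trim34a* shares no run above 10 bases with any of the other 5. The 300-base window of *Trim5* occurs at 2 places on chromosome 7, and the place next to the annotated gene is given. The core was present for 6 of 6 genes of the cluster, before the start in 4 of them. It was present in 3.99% of the 27025 genes with a promoter in the table (3.46% before the start). Among the genes tested here that share was 3.73% (3.16% before the start). The cluster was bounded by genes called in these data and several of its promoters are related, so these shares are no test. Outside the cluster, 29 members had a promoter in the table. The core was present in 3 of these, *Trim2*, *Trim21* and *Trim26*, none of which was called. Only 35 of the 46 members had a promoter in the table, which is under 80%, so a share over the whole family is void. A match of these letters is a description of sequence and was not measured as a bound site.

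**Figure D2:**
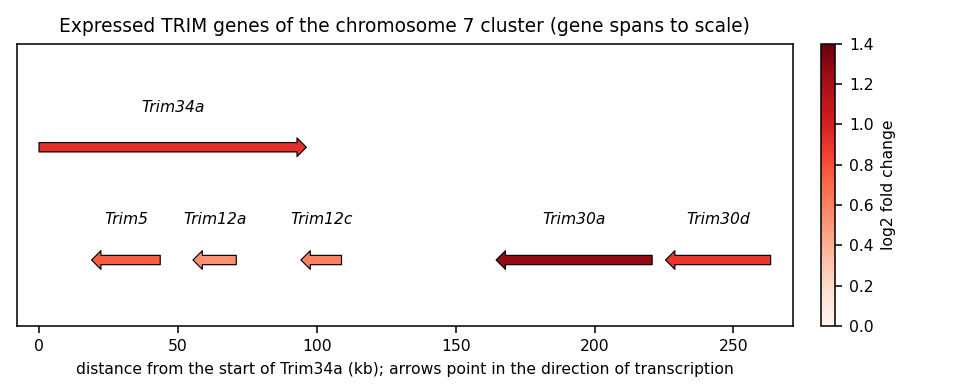
Gene spans of the 6 TRIM members of the chromosome 7 cluster, to scale, by distance in kb from the start of *Trim34a* (horizontal axis), with arrows in the direction of transcription and colour for the log2 fold change of E861A against wild type. *Trim30a* (1.28) has the deepest colour, and all 6 are above 0.

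*Trim30a* showed the largest difference of the family. It was at 5.23, 6.04 and 7.89 CPM in E861A and at 2.54, 2.63 and 2.69 CPM in wild type. The groups were far apart, and the wild-type libraries lay close together. The means were 6.39 ± 1.37 CPM in E861A and 2.62 ± 0.0731 CPM in wild type (SD, n = 3). The log2 fold change was 1.28 ± 0.15 (SE) or 2.42-fold (95% interval 1.93 to 3.04), with an adjusted p of 0.000184. It remained called in 19 of 19 alternative settings. Without E861A replicate 3, the library with the most *S100a8*, *S100a9*, *Ngp* and *Trim30a*, the log2 fold change was 1.10 (adjusted p 0.00488). Without E861A replicate 1, the library with pituitary transcripts, it was 1.41 (adjusted p 5.04e-05).

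*Trim30d*, its neighbour, was at 3.01, 2.67 and 3.39 CPM in E861A and 1.58, 1.37 and 1.88 CPM in wild type. Again the groups did not overlap. The log2 fold change was 0.90 ± 0.17, or 1.87-fold (1.45 to 2.40), with an adjusted p of 0.0168. It was called in 17 of 19 alternative settings, with adjusted p from 3.89e-05 to 0.197, and was not called without E861A replicate 3 (log2 fold change 0.81, adjusted p 0.197) or without wild-type replicate 1 (0.88, adjusted p 0.0642).

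*Trim34a* rested on few reads, with 66, 65 and 62 counts in E861A and 44, 44 and 33 in wild type. These correspond to 2.29, 1.79 and 2.31 CPM against 1.22, 1.16 and 0.924 CPM. The lowest E861A library was above the highest wild-type library. The log2 fold change was 0.93 ± 0.19, or 1.91-fold (1.44 to 2.53), with an adjusted p of 0.0315. The call was the least firm of the 3: it held in 12 of 18 alternative settings, with log2 fold changes of 0.82 to 1.04 and adjusted p from 0.000446 to 0.283, and was lost without E861A replicate 1 (adjusted p 0.138), E861A replicate 3 (0.283), wild-type replicate 1 (0.0642) or wild-type replicate 3 (0.208), with DESeq2 (0.0623) and with scaling by column totals (0.0533). The study's filter leaves *Trim34a* untested.

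The other 3 genes of the cluster did not pass the test, although their groups did not overlap either. *Trim12c* was at 3.08, 3.97 and 4.43 CPM in E861A and 2.35, 2.84 and 2.35 CPM in wild type, a log2 fold change of 0.60 ± 0.17 (adjusted p 0.204). *Trim12a* was at 4.30, 4.24 and 5.10 against 3.65, 3.20 and 2.52 CPM, a log2 fold change of 0.53 ± 0.15 (adjusted p 0.230). *Trim5* was the least expressed, at 1.00, 1.07 and 0.894 against 0.470, 0.473 and 0.840 CPM, a log2 fold change of 0.74 ± 0.27 (adjusted p 0.440). In the last gene the highest wild-type library came close to the lowest E861A library. E861A replicate 3 was the highest library for 5 of these 6 genes, and *Trim5* was the exception.

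**Figure D3:**
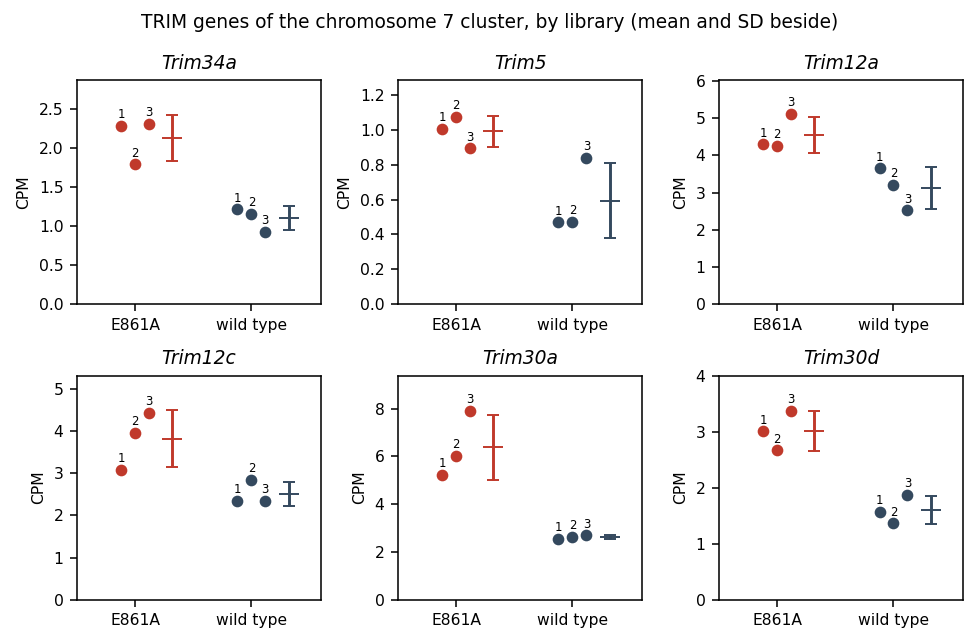
CPM (vertical axes, each from 0) of the 6 TRIM members of the chromosome 7 cluster in each E861A and wild-type library, with mean and SD beside the points. In each panel the 3 E861A points lie above the 3 wild-type points, with the widest gap for *Trim30a* and the narrowest for *Trim5*.

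Summed over the cluster, the libraries were at 18.9, 19.8 and 24.0 CPM in E861A and 11.8, 11.7 and 11.2 CPM in wild type. The median log2 fold change of its 6 members was 0.82, with a range of 0.53 to 1.28. The cluster was bounded by genes called in these data, so its contrast with the other members is a description and not a test. The 40 members elsewhere had a median of -0.0071 and a range of -0.24 to 0.40. None of these 40 was called by edgeR's quasi-likelihood test (lowest adjusted p 0.398), where 0.558% of all genes were, and DESeq2 called none. Of the 40, 4 had an unadjusted p under 0.05 (8.15% of all genes did). Groups did not overlap for 8 of the 40 (13.2% of all genes), with 4 higher and 4 lower in E861A. Other TRIM genes in the same stretch fell under the count filter: *Trim30b* had 0 to 4 counts per library, *Trim30c* 1 to 8 and *Trim34b* 0 to 4.

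The genes of this cluster share part of their transcript sequence, and reads from shared stretches may not belong clearly to a single gene. Values of single genes are uncertain to that extent. How the counting treated such reads was not tested. Of the 75-base words of its transcripts, *Trim34a* shares 32.4% with another coding gene, *Trim34b*. *Trim5* shares 16.4%, *Trim12c* 15% and *Trim12a* 11.7%, mainly among themselves. The shares are lower for *Trim30d* (5.64%) and *Trim30a* (2.78%). Exons of *Trim34a* also overlap those of *Trim12c* by 405 bases and those of *Gm15135* by 609, both on opposite strands. The strand setting of the counting was not given in the sources used here.

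Beyond the cluster, 4 further members are known as interferon-inducible, and none of them was called. *Trim21*, the cytosolic antibody receptor, was at 2.11, 2.51 and 2.87 CPM in E861A and 1.80, 2.15 and 1.99 CPM in wild type, with overlapping groups and a log2 fold change of 0.33 ± 0.17 (adjusted p 0.662). *Trim56*, which acts on the STING pathway, was at 14.2, 15.5 and 14.7 against 12.4, 14.1 and 13.1 CPM, a log2 fold change of 0.16 ± 0.079 (adjusted p 0.627) with groups that did not overlap. *Trim14*, a RING-less adaptor at MAVS, was close to the filter at 0.693, 0.661 and 0.372 against 0.580, 0.525 and 0.308 CPM (log2 fold change 0.30 ± 0.32, adjusted p 0.857). Its interval, -0.39 to 0.99, contains the estimate of *Trim34a*, so a difference of that size is not excluded. Exons of *Trim14* overlap those of *Nans* by 1356 bases on opposite strands, so its own values are uncertain. *Trim26*, which acts on IRF3, was at 20.8, 17.9 and 18.3 against 20.6, 19.3 and 18.5 CPM (log2 fold change -0.042 ± 0.066, adjusted p 0.903). Its interval of -0.18 to 0.097 lies below the estimate of every cluster gene. Over the whole interferon-inducible list of 10 tested members, 3 were called, 9 were above 0 and the median log2 fold change was 0.57. Of all genes tested, 0.558% were called and 50.1% were above 0. The 6 cluster genes are part of the interferon-inducible list and hold all 3 of its calls. This list was chosen with earlier results of these data known, and it counts only members with a TRIM symbol. *Pml*, a TRIM gene under another symbol, is outside it (log2 fold change -0.033 ± 0.078, adjusted p 0.940).

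*Trim17*, a ligase known from neuronal cell death, had the lowest p outside the cluster and is named for that after its values were seen. It was at 7.24, 5.10 and 5.55 CPM in E861A and 4.04, 4.94 and 4.48 CPM in wild type. The groups did not overlap and the log2 fold change was 0.40 ± 0.14, which did not pass the test (adjusted p 0.398). Its transcripts share 17% of their 75-base words with histone H2A genes, 1 of which overlaps it on the same strand.

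The abundant brain members did not pass the test, and their intervals were narrow. Per length of exon (RPKM, mean of the 6 libraries), the highest levels were those of *Trim44* (57.2), *Trim37* (49.7), *Trim9* (34.6), *Trim32* (32.9) and *Trim2* (26.2). The cluster genes were in the lower part of the order, between 0.214 RPKM for *Trim5* and 0.848 RPKM for *Trim12c*. The lowest member was *Trim14* at 0.118 RPKM. Library ranges overlap between many neighbours in this order, as between *Trim30d* (0.363 to 0.902 RPKM) and *Trim30a* (0.323 to 1.00 RPKM).

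**Figure D4:**
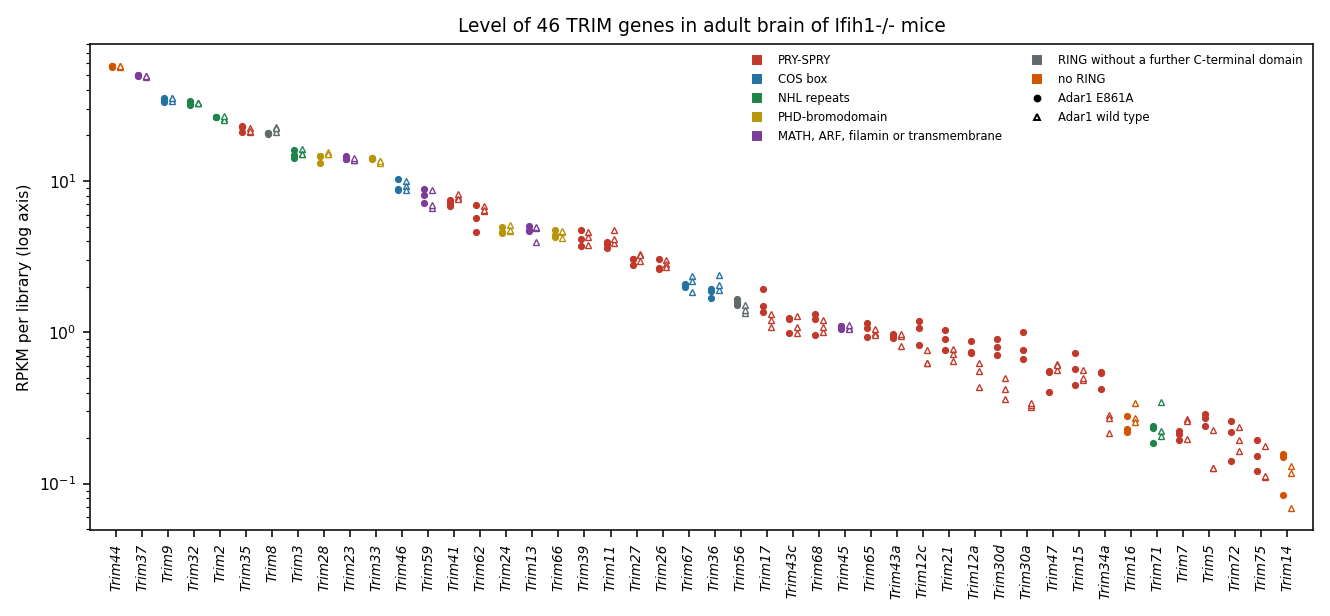
Level of each of the 46 TRIM members in each library (RPKM, log axis), ordered by mean level and coloured by C-terminal domain, with circles for E861A and triangles for wild type. Symbols of the genotypes lie on top of each other for the abundant genes from *Trim44* (57.2 RPKM) down, and come apart in the cluster genes, which are all below 1 RPKM on average.

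The NHL-repeat members have a C-terminal propeller that binds protein or RNA. Their log2 fold changes ran from -0.22 to 0.019, and 0 of 4 were called (0.558% of all genes were). *Trim2*, which ubiquitinates the light neurofilament chain, had the highest CPM of the family, at 441, 443 and 439 in E861A and 429, 424 and 448 in wild type. The log2 fold change was 0.019 ± 0.047, with a 95% interval of -0.080 to 0.12. *Trim32*, known from limb-girdle muscular dystrophy and neural differentiation, was at 108, 108 and 103 against 106, 106 and 107 CPM (log2 fold change -0.0047 ± 0.048). Both genes lay within a narrow band in all 6 libraries. *Trim71*, the developmental gene LIN41, was low and scattered at 1.21, 1.24 and 0.968 against 1.80, 1.16 and 1.06 CPM (log2 fold change -0.22 ± 0.23, adjusted p 0.845). Without wild-type replicate 1, the highest library, the value was 0.031.

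The COS-box members associate with microtubules. Of 4 tested, 0 were called (0.558% of all genes were), with log2 fold changes from -0.21 to -0.014. *Trim9*, a partner of the netrin receptor DCC in axon branching, was at 268, 264 and 253 CPM in E861A and 267, 254 and 268 CPM in wild type (log2 fold change -0.014 ± 0.046, 95% interval -0.11 to 0.083). *Trim36* was at 8.21, 9.15 and 9.35 against 11.6, 9.24 and 9.89 CPM, with overlapping groups (log2 fold change -0.21 ± 0.097, adjusted p 0.611). Over the list of 8 neuronal TRIM genes, neither edgeR's quasi-likelihood test (0.558% of all genes) nor DESeq2 called any. Of the 8, 1 (*Trim36*) had an unadjusted p under 0.05 (8.15% of all genes did). Values were above 0 for 2 of the 8 (50.1% of all genes), and the median log2 fold change was -0.014.

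The PHD-bromodomain members are chromatin corepressors, and 0 of 4 were called (0.558% of all genes were). *Trim28* (KAP1), which silences retroelements with KRAB zinc finger proteins, was at 59.1, 59.1 and 53.3 CPM in E861A and 61.0, 63.1 and 60.7 CPM in wild type. All E861A libraries were below all wild-type libraries, by a small amount that did not pass the test (log2 fold change -0.11 ± 0.058, adjusted p 0.644). *Trim33*, a regulator of SMAD signalling, was at 124, 125 and 126 against 121, 117 and 120 CPM (log2 fold change 0.058 ± 0.046, adjusted p 0.794), a gap in the other direction. *Trim33* was named after its values were seen, because its groups did not overlap.

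Of the 5 members with a MATH, ARF, filamin or transmembrane domain, 0 were called (0.558% of all genes were). Their log2 fold changes ran from -0.0027 to 0.11. *Trim37*, a ligase of peroxisomes and centrosomes, was at 359, 361 and 361 CPM in E861A and 353, 358 and 358 CPM in wild type. The groups did not overlap, yet the log2 fold change was only 0.0094 ± 0.046. *Trim59* was at 24.1, 27.0 and 29.9 against 29.4, 22.3 and 23.2 CPM, spread widely within each genotype (log2 fold change 0.11 ± 0.093, adjusted p 0.808).

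*Trim8*, a RING member without a further C-terminal domain that acts in cytokine signalling, was at 67.4, 66.2 and 67.3 CPM in E861A and 73.8, 68.1 and 72.6 CPM in wild type (log2 fold change -0.099 ± 0.051, adjusted p 0.643). All E861A libraries were the lower ones. Of the 3 tested members without a RING, 0 were called (0.558% of all genes were). *Trim44*, which carries a zinc finger of the deubiquitinase type in place of the RING, was at 324, 324 and 320 against 325, 321 and 325 CPM (log2 fold change -0.0095 ± 0.045).

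In the PRY-SPRY group as a whole, 3 of 24 tested members were called, 16 were above 0 and 8 below, and the median log2 fold change was 0.050. Of all genes tested, 0.558% were called and 50.1% were above 0. All 3 calls in the PRY-SPRY group, and 6 of its values above 0, came from the chromosome 7 cluster. *Trim35*, the member with the highest level of this group, was at 106, 105 and 97.0 CPM in E861A and 96.6, 103 and 99.3 CPM in wild type (log2 fold change 0.039 ± 0.054, adjusted p 0.886). *Trim41* and *Trim47* were the PRY-SPRY members with E861A below wild type in all libraries, at 23.9 to 26.5 against 26.9 to 28.9 CPM and at 1.11 to 1.53 against 1.55 to 1.69 CPM. Neither passed the test (adjusted p 0.588 and 0.787), and both are named after their values were seen. *Trim16* and *Fbxw10* overlap on the same strand by 2557 exon bases, and *Trim47* and *Trim65* by 225. *Trim43a* and *Trim43c* have near-identical copies. The own values of all these members are uncertain.

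The filter on counts decided which of the low genes were tested. Just inside it were *Trim75* (10 to 17 counts per library), *Trim72* (13 to 22), *Trim14* (10 to 24) and *Trim5* (17 to 39), and just outside it were *Trim40* (5 to 9), *Trim63* (0 to 10), *Trim30c* (1 to 8) and *Trim6* (2 to 13). A count of 0 allows up to 3 counts, or 0.0788 to 0.112 CPM in these libraries, by counting error alone.

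Genes around the TRIM ligases were taken from 3 lists. Of TRIM genes that go by other symbols, 0 of 4 tested (*Mid1*, *Mid2*, *Pml*, *Bspry*) were called, where 0.558% of all genes were. *Mid1*, a microtubule-bound ligase, spread from 22.4 to 35.7 CPM in E861A and from 8.60 to 26.6 CPM in wild type (log2 fold change 0.61 ± 0.24, adjusted p 0.503), with overlapping groups. Of 19 tested genes for ubiquitin, its activating enzymes and the E2 enzymes, 0 were called (0.558% of all genes were). The median log2 fold change of these genes was 0.0092. The largest in this list was *Uba7*, the E1 enzyme of the ubiquitin-like ISG15, at 1.80, 1.98 and 2.79 CPM in E861A and 1.44, 1.55 and 1.32 CPM in wild type (log2 fold change 0.59 ± 0.20, adjusted p 0.368).

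Of 15 sensors, adaptors and factors that TRIM ligases are known to modify, 2 were called, both higher in E861A. Of all genes tested, 0.558% were called and 0.444% were called higher. *Ddx58*, which encodes the RNA sensor RIG-I, was at 8.90, 7.94 and 9.57 CPM in E861A and 5.25, 5.57 and 5.32 CPM in wild type (log2 fold change 0.70 ± 0.10, adjusted p 0.00149). *Irf7*, which drives type I interferon genes, was at 2.94, 3.31 and 3.84 against 1.91, 0.762 and 1.57 CPM (log2 fold change 1.25 ± 0.23, adjusted p 0.0126). Neither overlapped between genotypes, as was the case for 13.2% of all genes. *Tab2* and *Tab3*, the adaptors on which TRIM30a acts, had log2 fold changes of -0.013 ± 0.051 and 0.038 ± 0.059 (adjusted p 0.968 and 0.904). In this list 10 genes were above 0 and 5 below (50.1% of all genes were above 0), with a median log2 fold change of 0.038.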

How the data were processed

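Whole-brain RNA was depleted of ribosomal RNA and sequenced as stranded 75-base pairs. The authors used STAR on the mm9 genome, and the deposited file of raw counts, with libraries unpooled, was analysed here. Submitters' processing notes name STAR 2.5.2a, Trimmomatic 0.36 and edgeR. The strand setting is not given in the sources used here. The authors' deposited comparison table (fold changes and adjusted p-values) and CPM tables were not used. Depth was 26853488 to 38076753 counts.

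Genes with at least 10 counts in at least 3 libraries (19357) were tested with edgeR 4.0.16 (R 4.3.3; TMM, quasi-likelihood test, no covariates), with Benjamini-Hochberg adjustment; SE is the log2 fold change over the square root of F. CPM uses library totals, RPKM the union exon length in GENCODE vM1. The fit was tested on simulated data. Replicate libraries differed beyond sampling noise (chi-square per degree of freedom 3.96 to 9.72). Alternatives changed scaling, filter, test (DESeq2 1.42.0, limma-voom 3.58.1) and libraries.

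Members and lists were chosen with earlier results of these data known. Named were called members, the member of highest level in each domain group, the largest difference where none was called, all interferon-inducible members and those next to the filter. *Trim2*, *Trim17*, *Trim33*, *Trim41*, *Trim47*, *Mid1*, *Pml*, *Uba7*, *Tab2* and *Tab3* were added after values were seen. Same-numbered replicates were checked for pairing. A gene of the list of sensors and factors is not reported here.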

Additional observations from a re-analysis of the deposited data

How the results depend on the processing

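The count of members called was 5 with no filter on low counts (*Trim12a*, adjusted p 0.0121, and *Trim12c*, adjusted p 0.00728, in addition) and ranged from 1 to 3 when a library was left out, against 3 in the reported analysis. *Trim30a* was the member called in each omission. Over all genes, 108 were called, 69 with the study's CPM filter, 376 with no filter, 178 with the likelihood ratio test, 177 with the exact test, and 57 to 174 when a library was left out, lowest without E861A replicate 3 and highest without E861A replicate 2. Of the 20 members recomputed under each setting, 5 uncalled ones changed sign. *Trim32* was at 0.0060 with upper-quartile factors, 0.00068 with column totals and 0.0020 with the study's filter, and *Trim44* at 0.0014 with upper-quartile factors. When a library was left out, *Trim32* ran from -0.032 to 0.014, *Trim44* from -0.026 to 0.0025, *Trim37* from -0.0085 to 0.028, *Trim9* from -0.033 to 0.0067 and *Trim71* from -0.36 to 0.031. The cause was not tested. *Trim72*, next to the filter and recomputed for omissions, ran from -0.18 to 0.24. The other 15 of the 20 kept their sign in each of the 13 settings and 6 omissions that tested them. No scaling moved the median of all genes by over 0.011.

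The genotypes share replicate numbers, with correlations of same-numbered deviations of 0.0996, 0.200 and 0.0549 over all genes tested, where 5 of 6 libraries correlated best with their own number, and of 0.221, 0.329 and 0.112 over the genes of the study's filter, where 6 of 6 did. With the replicate block, 230 genes (1.19%) were called, 3 of them members (*Trim30a*, *Trim30d* and *Trim34a*), and of the listed pathway genes *Mid1* gained a call (adjusted p 0.0215). The pairing is a hint from the data and not from the design. Depth limited the low members: the SE of a log2 fold change ran from 0.045 (*Trim44*) to 0.35 (*Trim75*).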
